A study of Sus scrofa with 19 samples.

Results

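Genes of MHC class I antigen presentation were followed in the endometrium, the inner layer of the uterus, of gilts infused with hormones or vehicle. Members were the array probes whose RefSeq accession, read without its version, belongs to 1 of 10 pig genes and whose spots were well above background on at least 4 arrays. Of the 10 genes, 7 had such a probe, out of 3010 genes with a tested probe on the array. The 7 genes had 21 probes among 39095 tested: SLA-3 had 7, PSMB8 and PSMB10 had 3 each, and B2M, TAP1, TAP2 and PSMB9 had 2 each. SLA-1, SLA-2 and TAPBP were matched by no probe and were not analysed here. Pig class I heavy chain genes are close copies of each other, so it is uncertain which of them the probes matched to SLA-3 measured.

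MHC class I molecules show short peptides from inside a cell to passing T cells. A class I molecule is a heavy chain joined to beta-2-microglobulin (B2M), and in the pig the classical heavy chains are encoded by the swine leukocyte antigen genes SLA-1, SLA-2 and SLA-3. The peptides are cut by the immunoproteasome, whose catalytic subunits PSMB8, PSMB9 and PSMB10 take the place of those of the standard proteasome. TAP1 and TAP2 form the transporter that carries the peptides into the endoplasmic reticulum, where TAPBP (tapasin) bridges the transporter and the empty heavy chain. Interferons are known to raise the expression of this whole set, and in the uterus class I genes have been studied as part of how the maternal tissue receives the conceptus.

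The samples came from 10 crossbred gilts, young female pigs, of 8 months of age. All gilts had their oestrous cycle synchronised, and both uterine horns were cannulated on day 8 to 9 of the cycle. The horns were then infused on days 11 to 12, for 24 h in all, with 4 h between infusions. In 6 treated gilts, 1 horn, picked at random, received 200 µg of prostaglandin E2 with 33.3 µg of estradiol per infusion (hormone horns, 6 arrays). The opposite horn was infused with vehicle alone, saline with 1% ethanol in a volume of 5 mL (placebo horns, 5 arrays, none for gilt 40). In 4 control gilts both horns received the vehicle, and their arrays were marked L (4 arrays) and P (4 arrays). All groups therefore shared the surgery and the infusions. A placebo horn lay in the same animal as a hormone horn, so its RNA came from a gilt that also received hormones. What L and P stand for is not stated. The mark L was on every placebo horn and the mark P on 5 of 6 hormone horns, so mark and infusion cannot be told apart within treated gilts.

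On the 19 arrays, 79.1% to 88.4% of spots were well above background, 0 were saturated, and the signal at the 75th percentile ran from 597 to 983. Both horns of gilt 47 stood apart from the other treated gilts in the genes described here, and results are given with and without that gilt. Defining markers of the labelled tissue were present: all 6 measured markers of endometrial epithelium, among them EPCAM, CDH1 and KRT8, were well above background on all 19 arrays. Markers of other cells were present as well, since 11 of 11 T and natural killer cell markers, 8 of 8 macrophage and dendritic cell markers and 2 of 3 B cell markers were well above background on all 19 arrays. In tissue RNA, fewer cells of a type and less RNA per cell cannot be told apart. Nothing in the labels says more about the separate animals than their numbers, and p-values measure the spread between these samples.

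Levels are log2 of the processed signal relative to the 75th percentile of the same array, so that 0 is the brightness of that percentile, and a difference of 1 is a 2-fold change. They are compared between arrays for a probe, never between probes. Each gene is described by its brightest probe, with its other probes beside it. Differences were tested with limma over all probes with the gilt as a random block and Benjamini-Hochberg adjustment, with 0.05 as the threshold of the adjusted p. Values of single arrays follow the order of gilts 9, 14, 28 and 46 in control gilts and of gilts 36, 38, 41, 44 and 47 in placebo horns.

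Class I heavy chain, peptide transporter and immunoproteasome genes lay higher in treated than in control gilts, in both the hormone and the placebo horns, but most of these differences did not pass the test. All 21 probes had a fitted difference above 0 in hormone horns against control gilts (0.30 to 1.59, median 0.68) and in placebo horns against control gilts (0.20 to 1.47, median 0.67). The median over all tested probes was 0.01 and -0.06, and 51.1% and 43.9% of them lay above 0. Of probes with a RefSeq accession, as all members have, 67.3% and 62.3% lay above 0. By brightest probe, 0 of 7 genes passed in either comparison in limma, with 5 and 1 of 7 at an unadjusted p under 0.05. Over all tested probes, 11.6% passed in hormone horns against control gilts (6.72% higher, 4.93% lower) and 4.42% in placebo horns (2.46% higher, 1.96% lower). At an unadjusted p under 0.05 these shares were 27.1% and 23.9%. Among the 21 member probes, 2 passed in each of the 2 comparisons, both of them SLA-3 probes. The 2 comparisons share the control arrays, so they are not independent of each other. In a model with a property of the arrays as a term, described with its values after the batches, most of the differences turned below 0.

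**Figure D1:**
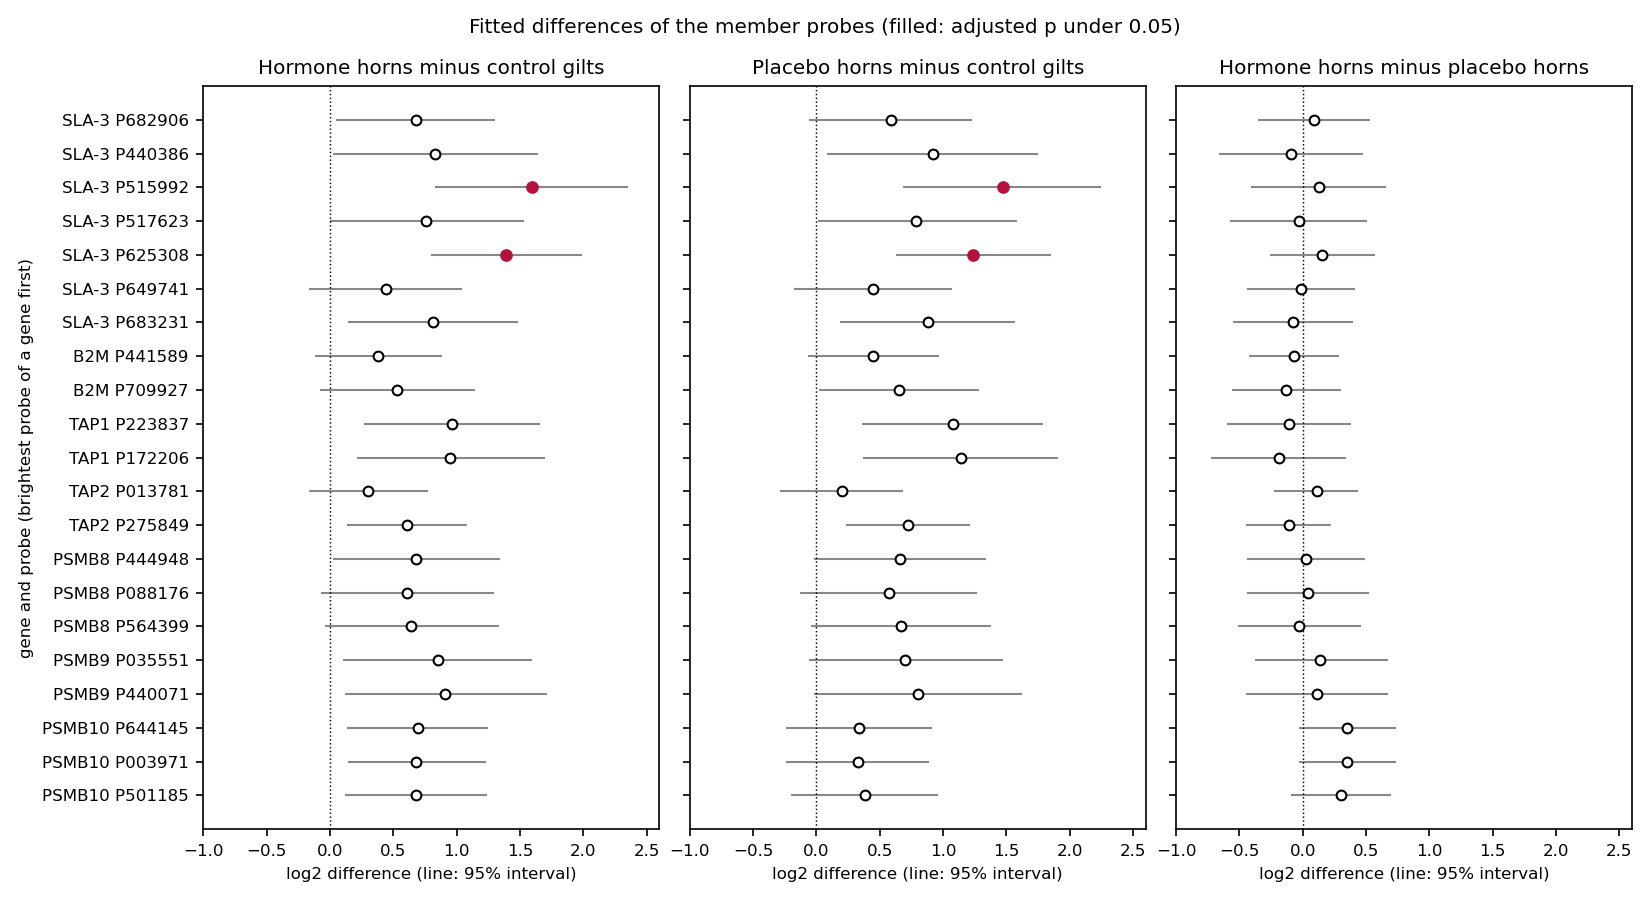
Fitted log2 difference (horizontal axis, log2 units) with its 95% interval for each of the 21 member probes, in hormone horns minus control gilts, placebo horns minus control gilts, and hormone horns minus placebo horns. Filled points passed at an adjusted p under 0.05: SLA-3 probes P515992 and P625308 pass in the first and second panels, and 0 probes pass in the third, where the points lie between -0.19 and 0.35.

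SLA-3, matched as a class I heavy chain, was read by 7 probes. Its brightest probe, A_72_P682906, had log2 levels of 6.17, 6.46, 6.96 and 6.05 in L and 5.90, 6.69, 7.02 and 6.10 in P horns of control gilts. In placebo horns the levels were 6.19, 6.78, 6.54, 7.62 and 8.01, and hormone horns had 6.44 as the lowest, 6.80 as the median and 8.23 as the highest. The groups overlapped, and only gilts 44 and 47 lay above every control array. The fitted difference was 0.68 ± 0.30 (SE, n = 6 and 8 horns; limma adjusted p 0.147) for hormone horns and 0.59 ± 0.31 (SE, 5 placebo horns; adjusted p 0.252) for placebo horns.

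A pair of SLA-3 probes passed in both comparisons, less steadily in placebo horns. Probe A_72_P625308 had levels of 2.94, 3.88, 4.57 and 3.79 in L and 2.61, 3.93, 4.47 and 3.94 in P horns of control gilts. The placebo horns had 4.41, 5.11, 4.59, 5.33 and 5.69, and hormone horns had 4.76, 4.97 and 5.73 as lowest, median and highest. All 6 hormone horns lay above all 8 control horns, while the placebo horn of gilt 36 lay below both horns of control gilt 28. The difference was 1.39 ± 0.28 (SE, 2.63-fold; limma adjusted p 0.00618) in hormone horns and 1.24 ± 0.29 (SE, 2.36-fold; adjusted p 0.0311) in placebo horns.

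Probe A_72_P515992 gave the widest difference among the member probes. Control levels were 4.42, 4.45, 5.01 and 5.65 in L and 4.13, 4.67, 5.05 and 5.87 in P horns. Those of placebo horns were 4.88, 6.89, 6.33, 6.55 and 7.44, and hormone horns had 5.18, 6.67 and 7.51 as lowest, median and highest. Gilt 36 overlapped the control arrays in both horns, and the other treated arrays lay above them. The difference was 1.59 ± 0.36 (SE, 3.02-fold; limma adjusted p 0.011) in hormone horns and 1.47 ± 0.37 (SE, 2.76-fold; adjusted p 0.0369) in placebo horns. Without control gilt 9 or without control gilt 14, the adjusted p in hormone horns was 0.053 and 0.0548, with differences of 1.38 and 1.48. In placebo horns both calls ended without any 1 of gilts 9, 14, 28, 38 and 47, when the L and P horns of a control gilt were averaged, and with only the groups compared. The highest adjusted p was then 0.136 for A_72_P515992 and 0.118 for A_72_P625308.

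The other 4 SLA-3 probes had differences of 0.44 to 0.83 in hormone horns and 0.45 to 0.92 in placebo horns, and 0 of them passed. Probe A_72_P683231 differed by 0.81 ± 0.32 (SE) and 0.88 ± 0.33 (SE), and all 5 placebo horns lay above all 8 control horns (lowest placebo level 4.92, highest control level 4.88). The SLA-3 probes followed each other only in part: over the 19 arrays the correlation between 2 of them was 0.67 to 0.96, and 0.46 to 0.91 over the 17 arrays without gilt 47. Neither the brightest SLA-3 probe nor the other 4 passed, so the call rests on these 2 probes.

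B2M, the light chain common to all class I molecules, had levels of 6.97, 7.05, 7.65 and 6.98 in L and 6.51, 7.24, 7.55 and 7.13 in P horns of control gilts. Its levels in placebo horns were 7.09, 7.62, 7.48, 7.82 and 8.31, and hormone horns had 6.73, 7.55 and 8.18 as lowest, median and highest. The groups overlapped, with the hormone horn of gilt 40 among the lower control arrays and gilts 44 and 47 above every control array. The difference was 0.38 ± 0.24 (SE; limma adjusted p 0.33) in hormone horns and 0.45 ± 0.25 (SE; adjusted p 0.278) in placebo horns, and did not pass. The second B2M probe gave 0.53 and 0.65 and followed the first closely (r = 0.99 over 19 arrays).

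TAP1 had the widest difference by brightest probe and was nearest to the threshold. Its levels were -0.68, -1.17, -0.53 and -0.63 in L and -1.73, -1.10, -0.86 and -0.79 in P horns of control gilts. On the placebo horns it was at -0.22, -0.30, 0.29, -0.32 and 1.65, and hormone horns had -0.75, -0.15 and 1.38 as lowest, median and highest. All 5 placebo horns lay above all 8 control horns, and the hormone horns of gilts 38 and 40 lay within the control range. The difference was 0.96 ± 0.33 (SE, 1.95-fold; limma adjusted p 0.0657) in hormone horns and 1.08 ± 0.34 (SE, 2.11-fold; adjusted p 0.0727) in placebo horns. The second probe gave 0.95 and 1.14. Without gilt 40, which has no placebo horn here, the brightest probe passed in hormone horns (1.12, adjusted p 0.0427).

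TAP2, the partner of TAP1 in the transporter, gave different readings with its 2 probes. The brightest, A_72_P013781, had levels of 1.75, 1.88, 2.11 and 1.84 in L and 1.51, 1.90, 1.93 and 1.69 in P horns of control gilts, and 1.69, 2.03, 2.13, 1.75 and 1.87 in placebo horns. Hormone horns had 1.59, 1.97 and 3.35 as lowest, median and highest, the last in gilt 40. Apart from that array the groups overlapped fully, and the differences were 0.30 ± 0.22 (SE; limma adjusted p 0.412) and 0.20 ± 0.23 (SE; adjusted p 0.637).

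The dimmer TAP2 probe, A_72_P275849, resembled TAP1. Control levels were -1.63, -1.99, -1.37 and -1.48 in L and -2.27, -1.96, -1.65 and -1.49 in P horns. Those in placebo horns were -1.31, -1.15, -1.06, -1.30 and 0.03, all above the control arrays. Hormone horns ran from -1.62 to -0.31. The differences were 0.61 ± 0.23 (SE; limma adjusted p 0.0874) and 0.72 ± 0.23 (SE; adjusted p 0.0778). The 2 TAP2 probes were not correlated over the arrays (r = -0.05 over 19, 0.15 over the 17 without gilt 47), so no single level of TAP2 can be given.

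Among the 21 probes, 1 (SLA-3 A_72_P625308) had all hormone horns above all control horns, where 3.85% of all tested probes did. For placebo horns 3 did (SLA-3 A_72_P683231, TAP1 A_72_P223837 and TAP2 A_72_P275849), where 3.05% of all tested probes did.

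PSMB8, an immunoproteasome subunit, had levels of 0.90, 0.17, 0.61 and 0.23 in L and 0.44, 0.33, 0.55 and 0.26 in P horns of control gilts. For placebo horns the levels were 1.40, 0.42, 0.82, 0.78 and 2.44, and hormone horns had 0.12, 1.19 and 2.29 as lowest, median and highest. Gilts 36 and 47 lay above the control arrays in both horns, while gilt 38 lay within or below them. The difference was 0.68 ± 0.31 (SE; limma adjusted p 0.168) in hormone horns and 0.66 ± 0.32 (SE; adjusted p 0.225) in placebo horns. The other 2 probes gave 0.61 and 0.64 in hormone horns and 0.57 and 0.67 in placebo horns.

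PSMB9, a second immunoproteasome subunit, had levels of 2.19, 2.17, 2.75 and 2.44 in L and 1.73, 2.59, 2.77 and 2.68 in P horns of control gilts. The levels of placebo horns were 2.61, 2.83, 3.05, 2.79 and 4.79, and hormone horns had 2.37, 3.08 and 4.76 as lowest, median and highest. The placebo horn of gilt 36 and the hormone horns of gilts 38 and 40 lay within the control range. The difference was 0.85 ± 0.35 (SE; limma adjusted p 0.129) in hormone horns and 0.70 ± 0.37 (SE; adjusted p 0.248) in placebo horns, and 0.91 and 0.80 by the other probe.

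PSMB10, the third subunit, was the member whose fitted difference between hormone and placebo horns was widest. Its levels were 2.69, 2.81 and 2.93 in L horns of gilts 9, 14 and 46, and 2.57, 3.27, 2.91 and 3.27 in P horns of all 4 control gilts. The value of the L horn of gilt 28 carried an outlier mark and was left out of the fit. Placebo levels were 2.95, 3.20, 2.86, 2.90 and 4.44, and hormone horns had 3.15, 3.50 and 4.37 as lowest, median and highest. Apart from gilt 47 the placebo horns lay within the control range. The difference was 0.69 ± 0.27 (SE; limma adjusted p 0.101) in hormone horns and 0.34 ± 0.27 (SE; adjusted p 0.477) in placebo horns, and the other 2 probes gave 0.68 and 0.68 in hormone horns and 0.33 and 0.38 in placebo horns.

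**Figure D2:**
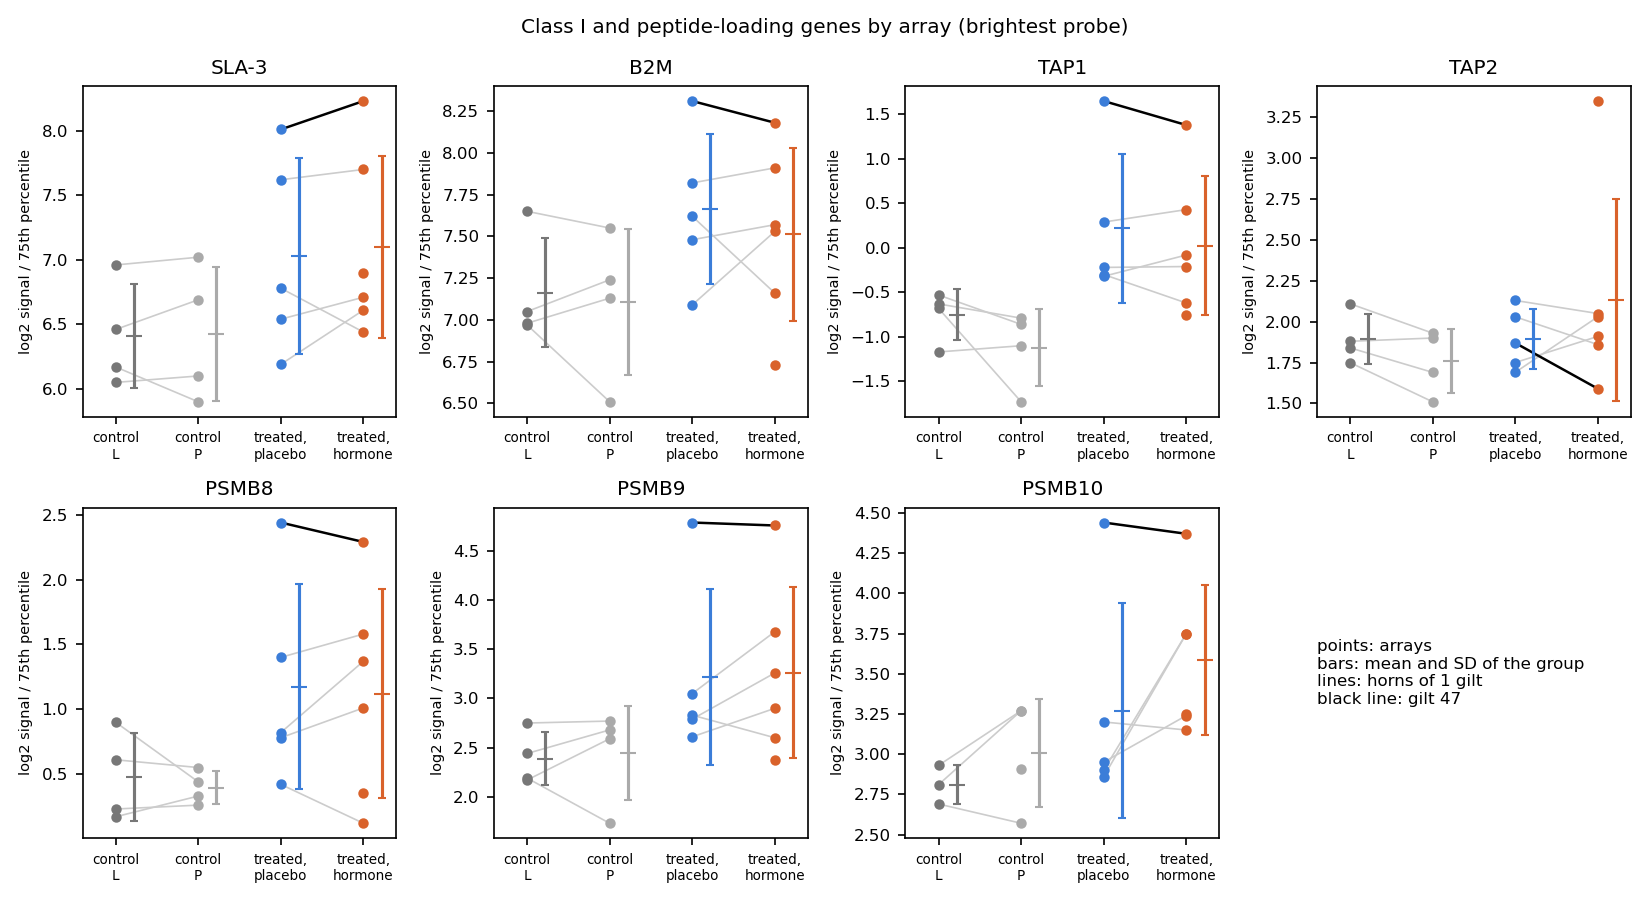
Level of each of the 7 genes by its brightest probe (vertical axis, log2 signal relative to the 75th percentile of the array) on the 19 arrays, by group. Points are arrays, bars are the group mean with its SD, lines join the 2 horns of a gilt, and the black line is gilt 47, which is the highest treated gilt in every gene except TAP2, where the hormone horn of gilt 40 stands at 3.35.

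No member probe passed between the hormone and placebo horns of treated gilts. Of the 21 probes, 0 passed in limma and 0 had an unadjusted p under 0.05; over all tested probes, 0.00256% passed and 9.92% had an unadjusted p under 0.05. The fitted differences ran from -0.19 (TAP1 A_72_P172206) to 0.35 (PSMB10 A_72_P644145), with a median of 0.03, against 0.06 over all tested probes. With all gilts in the fit, the 95% intervals of the 21 probes all lay within -0.72 to 0.74. Larger differences in either direction lay outside all of these intervals. All probes share 1 correlation within a gilt in the fit, so the intervals and p between horns may be too wide and too high for genes that vary much between gilts. PSMB10 came closest, at 0.35 ± 0.18 (SE, 95% interval -0.03 to 0.74, limma adjusted p 0.53), and its other 2 probes gave 0.35 and 0.30. Without gilt 47 the 21 probes ran from -0.11 to 0.48 (median 0.09), with 14 above 0. PSMB10 was then at 0.47 ± 0.14 (SE, limma adjusted p 0.266), and its other 2 probes gave 0.48 and 0.45.

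The 5 gilts with both horns did not share a direction. In gilts 36 and 44 all 21 probes were higher in the hormone horn (median difference 0.30 and 0.16), and in gilt 41 19 of 21 were (0.17). In gilt 38 all 21 were lower in the hormone horn (-0.29), and in gilt 47 3 of 21 were higher (-0.13). PSMB10 was higher in the hormone horn of gilts 36, 41 and 44 and slightly lower in gilts 38 and 47. With the sign dropped, the median member probe differed by 0.30, 0.29, 0.17, 0.16 and 0.13 in gilts 36, 38, 41, 44 and 47. Over all tested probes this was 0.41, 0.22, 0.16, 0.30 and 0.18. In the fit over all gilts, 62.6% of all tested probes lay above 0 in hormone against placebo horns. Probes of a gene are not independent, so the counts within a gilt do not set the members apart.

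Control gilts, which had no hormone in either horn, also differed between horns. The median member probe had a mean horn difference, sign dropped, of 0.23 in control gilts and 0.26 in treated gilts. In gilt 9 all 21 probes were lower in the horn marked P (median -0.46). On that array the 4 smooth muscle markers had a median of 2.34 above the control mean, against -0.92 in the L horn, and the 6 epithelial markers were at -0.68, against 0.14. In gilt 14 20 of 21 were higher (0.16), and in gilts 28 and 46 the medians were -0.03 and 0.03. With the sign dropped, the median member probe differed by 0.46, 0.16, 0.06 and 0.15 in gilts 9, 14, 28 and 46. Over all tested probes this was 0.22, 0.15, 0.13 and 0.12. Between the P and L horns of control gilts 0 of 21 probes passed in limma and 0 had an unadjusted p under 0.05, where 0% and 2.39% of all tested probes did. The difference between horns in treated gilts minus that in control gilts was -0.03 to 0.25 for the 21 probes, and 0 passed (limma adjusted p 0.999 for all, 0 at an unadjusted p under 0.05), where 0% and 3.24% of all tested probes did.

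**Figure D3:**
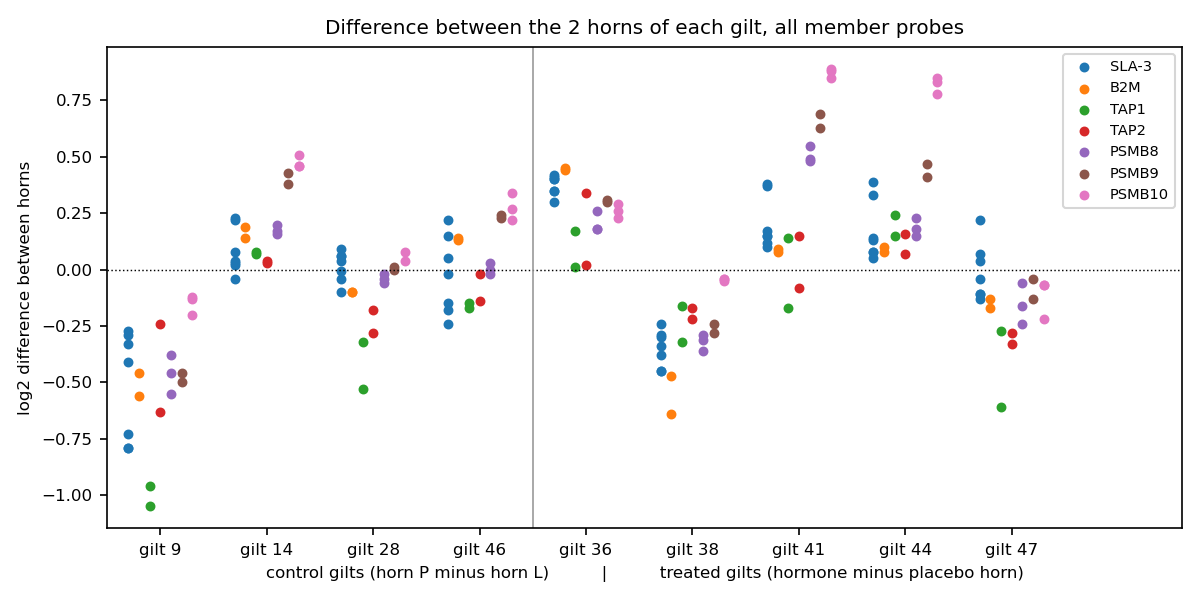
Difference between the 2 horns of each gilt (vertical axis, log2 units) for every member probe, coloured by gene: horn P minus horn L in the 4 control gilts on the left, hormone minus placebo horn in 5 treated gilts on the right. Points of several gilts lie mostly on 1 side of 0, with medians of -0.46 in control gilt 9, -0.29 in treated gilt 38 and 0.30 in treated gilt 36. Those of control gilts 28 and 46 lie on both sides, with 7 of 20 and 11 of 21 above 0.

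Differences between gilts were wider than those between the horns of a gilt. The median member probe had an SD of 0.76 among treated gilts, against the mean horn difference of 0.26. Among all tested probes these were 0.31 and 0.30. Gilt 47 held the highest treated level in 20 of 21 probes, in the placebo and in the hormone horn alike, the exception being TAP2 A_72_P013781. Its median level over the probes was 1.96 above the control mean in the placebo horn and 1.86 in the hormone horn, against 0.01 to 0.84 on the other 9 treated arrays. Without gilt 47 the median SD among treated gilts was 0.32, beside 0.34 among control gilts. At the other end, the P horn of control gilt 9 was the lowest of its group in 18 of 21 probes. It was also the array with the highest smooth muscle markers (2.34, where the other control arrays had -0.92 to 0.80) and the lowest epithelial markers (-0.68), and their part in its levels was not tested. Without this array the median difference of the 21 probes was 0.63 in hormone horns, with the same 2 SLA-3 probes passing (limma adjusted p 0.0192 and 0.00959), and 0.62 in placebo horns, where A_72_P625308 passed (adjusted p 0.0468) and A_72_P515992 did not (adjusted p 0.0616).

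Leaving out gilt 47 turned none of the 21 differences in either comparison with control gilts and lowered their medians. TAP2 A_72_P013781 went the other way in hormone horns, from 0.30 to 0.41. In hormone horns they then ran from 0.20 to 1.39 (median 0.49), and the same 2 SLA-3 probes passed (A_72_P515992 1.39, limma adjusted p 0.0173, and A_72_P625308 1.28, adjusted p 0.00977). In placebo horns they ran from 0.04 to 1.23 (median 0.36), and 0 passed: the same probes had 1.23 (adjusted p 0.0893) and 1.09 (adjusted p 0.0761). PSMB10 was at 0.06 in placebo horns, where it had 0.34 with gilt 47, and at 0.53 in hormone horns (adjusted p 0.0681). TAP1 was at 0.69 (adjusted p 0.0554) and 0.74 (adjusted p 0.11).

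Arrays were scanned on 3 days, with 1 or 2 control gilts on each, and 1 slide held a control gilt (9) and a treated gilt (36). On the first scan day, the median difference of the 21 probes was 0.98 in hormone horns and 0.72 in placebo horns. The second day gave 0.48 and 0.38, and the third, which held gilt 47, gave 0.96 and 1.25. On the shared slide, gilt 36 stood 0.83 and 0.57 above gilt 9. In hormone horns 21, 18 and 20 of 21 probes were above 0 on the 3 days, and on the slide 21 were. Within a day, SLA-3 A_72_P625308 differed by 2.46, 0.75 and 1.42 in hormone horns and A_72_P515992 by 1.75, 1.59 and 1.32. Slide and gilt otherwise cannot be told apart, since both horns of a gilt lay on 1 slide.

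A property of the arrays moved with the groups as well. The median level of probes with a RefSeq accession, minus that of probes for unannotated contigs, was 1.85 to 2.09 on control arrays and 2.16 to 2.50 on treated arrays, with no overlap. Accordingly, RefSeq probes, to which all members belong, had a median difference of 0.20 in hormone and 0.12 in placebo horns, where contig probes had -0.10 and -0.16. With this quantity as a term in the model, 0 probes of the whole array passed against control gilts. Of the 21 member probes, 3 then had a difference above 0 in hormone horns and 4 in placebo horns, and their median was -0.21 and -0.23. The 2 SLA-3 probes named above kept their sign at 0.39 and 0.54 in hormone horns (A_72_P515992 and A_72_P625308, limma adjusted p 0.978 and 0.974). Since treated and control arrays did not overlap in this quantity, it and the treatment cannot be told apart.

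Genes around the pathway were described from lists. Over all tested probes, 6.72% passed higher and 4.93% lower in hormone horns in limma, and 2.46% and 1.96% in placebo horns. An unadjusted p under 0.05 was reached by 27.1% and 23.9%. The listed genes were matched through RefSeq accessions, and 67.3% and 62.3% of RefSeq probes lay above 0 in the 2 comparisons. Of 6 measured relatives of class I heavy chains, all lay above 0 in hormone horns (median 0.61) and 1 passed: SLA-8, a non-classical class I gene, rose by 0.65 ± 0.19 (SE; limma adjusted p 0.0308). SLA-6, also a non-classical gene, had 0.79 ± 0.28 (SE; adjusted p 0.07), and SLA-5 had 0.71 ± 0.30 (SE; adjusted p 0.136). As for SLA-3, it is uncertain which of the class I heavy chain genes the probes matched to these SLA genes measured. In placebo horns 0 of 6 passed (median 0.57), and SLA-8 had 0.56 (adjusted p 0.09).

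Of 3 partners in peptide loading, calnexin (CANX), a chaperone of newly made heavy chains, rose in hormone horns by 0.61 ± 0.15 (SE; limma adjusted p 0.0161). The chaperone calreticulin (CALR) had 0.43 (adjusted p 0.108), and LNPEP, an aminopeptidase that trims peptides, had -0.07. Of 6 other proteasome genes, PSME3, an activator subunit that is not part of the interferon-induced activator, rose by 0.72 ± 0.18 (SE; adjusted p 0.0174). PSMB6 and PSMB7, whose places PSMB9 and PSMB10 take, had 0.25 and 0.33, and the interferon-induced activator subunits PSME1 and PSME2 had 0.29 and 0.24, and none of these 4 passed. In placebo horns 0 of 3 and 0 of 6 passed.

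Among 17 regulators of class I genes and parts of interferon signalling, 4 rose and 0 fell in hormone horns. Among them were IFNGR2, a chain of the interferon gamma receptor (1.06 ± 0.29 SE; limma adjusted p 0.0261), IFNAR1, a chain of the type I interferon receptor (0.92 ± 0.26 SE; adjusted p 0.0302) and the NF-kappaB subunit RELA (0.61 ± 0.15 SE; adjusted p 0.015). The median of the 17 was 0.23. IRF1, a transcription factor of class I promoters, had 0.82 ± 0.39 (SE; adjusted p 0.178), and interferon gamma itself (IFNG) had 0.46 (adjusted p 0.382). In placebo horns 1 of 17 passed (RELA, 0.69 ± 0.15 SE; adjusted p 0.026), and IFNGR2 had 0.97 (adjusted p 0.0666).

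Genes known as interferon-induced lay on both sides of 0. Of 16 measured, 7 lay above 0 in hormone horns, the median was -0.15 and 0 passed in limma, with 3 at an unadjusted p under 0.05. Those with the smallest p were OAS2 at -0.68 (adjusted p 0.0748), GBP1 at 1.31 (adjusted p 0.109) and EIF2AK2 at -0.56 (adjusted p 0.147). MX1 and ISG15, typical products of type I interferon, had -0.26 and -0.39. CXCL9, CXCL10 and CXCL11, of the same list, had 0.98, 0.91 and 1.90 (limma adjusted p 0.558, 0.604 and 0.247). In gilt 47 the mean over the 16 genes was 1.64 above control gilts in the placebo horn and 1.56 in the hormone horn. Their median there was 0.71 and 0.52. Other placebo horns had medians of -0.58 to 0.17, other hormone horns -1.19 to 0.53, and control arrays -0.75 to 0.60. By the mean, gilt 41 had 0.79 in the placebo horn and 1.18 in the hormone horn. In placebo horns 9 of 16 lay above 0 (median 0.02) and 0 passed, with 2 at an unadjusted p under 0.05. MHC class II genes, which present peptides from outside the cell, lay above 0 for 9 of 9 in both comparisons (medians 0.58 and 0.57), and 0 passed in limma, with 1 and 0 at an unadjusted p under 0.05.

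Markers of immune cells were high in gilt 47, as the members were, and those of T and natural killer cells and of macrophages followed the members most closely in the other gilts. The median of the 11 T and natural killer cell markers, relative to control gilts, was 2.40 and 2.54 in the placebo and hormone horn of gilt 47, -0.06 to 0.77 on the other treated arrays and -0.56 to 0.25 on control arrays. In hormone horns 10 of 11 lay above 0 (median 0.67), 0 rose and 1 fell, GZMB, a protease of cytotoxic cells (-0.94 ± 0.21 SE; limma adjusted p 0.0104). The 8 macrophage and dendritic cell markers were at 2.99 and 2.70 in gilt 47, at -0.26 to 1.32 on other treated arrays and at -0.56 to 0.35 on control arrays. Of these 8, 3 rose in hormone horns (LYZ 2.54, CD14 1.42 and MRC1 0.81) and 1 in placebo horns (LYZ 2.66).

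The 3 B cell markers were at 3.32 and 3.07 in gilt 47, at -0.40 to 1.40 on other treated arrays and at -0.20 to 0.43 on control arrays, and 0 passed. Of 8 listed neutrophil markers 3 were measured, S100A8, S100A9 and S100A12, which belong to 1 gene family. Whether their levels followed neutrophils was not tested. All 3 markers rose in hormone horns (median 5.65) and 1 in placebo horns (S100A8, 4.34 ± 1.19 SE, limma adjusted p 0.0456). They were at 7.83 and 8.10 in gilt 47, at -0.75 to 7.96 on other treated arrays and at -0.90 to 0.92 on control arrays. The hormone horn of gilt 38 had the 7.96, with the median member at 0.03 above the control mean.

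Markers of epithelium did not single out gilt 47, while those of endothelium were highest in that gilt. The 6 epithelial markers were at 0.40 to 1.07 on treated arrays, 0.80 and 0.64 in gilt 47, and -0.68 to 0.25 on control arrays. Of these, 4 rose in hormone horns (EPCAM, CDH1, MUC4 and CLDN4) and 3 in placebo horns. KRT8 and CLDN3 did not pass in hormone horns, at -0.33 and 0.07 (limma adjusted p 0.37 and 0.886). Above 0 lay 5 of 6 in hormone horns and 4 of 6 in placebo horns. Of 5 stromal markers, COL1A2 and THY1 rose in hormone horns, and of 5 endothelial markers VWF, CDH5 and ENG did. The endothelial markers were at 1.16 in the placebo horn and 0.96 in the hormone horn of gilt 47. Other placebo horns had -0.09 to 0.55, other hormone horns 0.32 to 0.80, and control arrays -0.15 to 0.36. The 4 smooth muscle markers gave 0 calls in limma, with 1 at an unadjusted p under 0.05 in hormone horns and 0 in placebo horns. The part of any of these cells in the levels of the members was not tested.

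Correlations across the arrays were taken between the mean of the 7 members and that of each list, every gene relative to its control mean. With the T and natural killer cell markers the correlation was 0.94 over 19 arrays and 0.85 over the 17 without gilt 47. For macrophage and dendritic cell markers these were 0.91 and 0.73, for class II genes 0.93 and 0.79, and for class I relatives and the other proteasome genes 0.95 and 0.86 each. B cell markers had 0.82 and 0.21, and neutrophil markers 0.65 and 0.41. Regulators had 0.87 and 0.60, and interferon-induced genes 0.73 and 0.39. Peptide loading partners had 0.76 and 0.48. Endothelial markers had 0.74 and 0.54, epithelial markers 0.61 and 0.60, stromal markers 0.27 and 0.20, and smooth muscle markers -0.05 and -0.14. These describe 19 arrays of 10 animals, where the horns of a gilt share an animal and a slide and the groups differ in level.

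**Figure D4:**
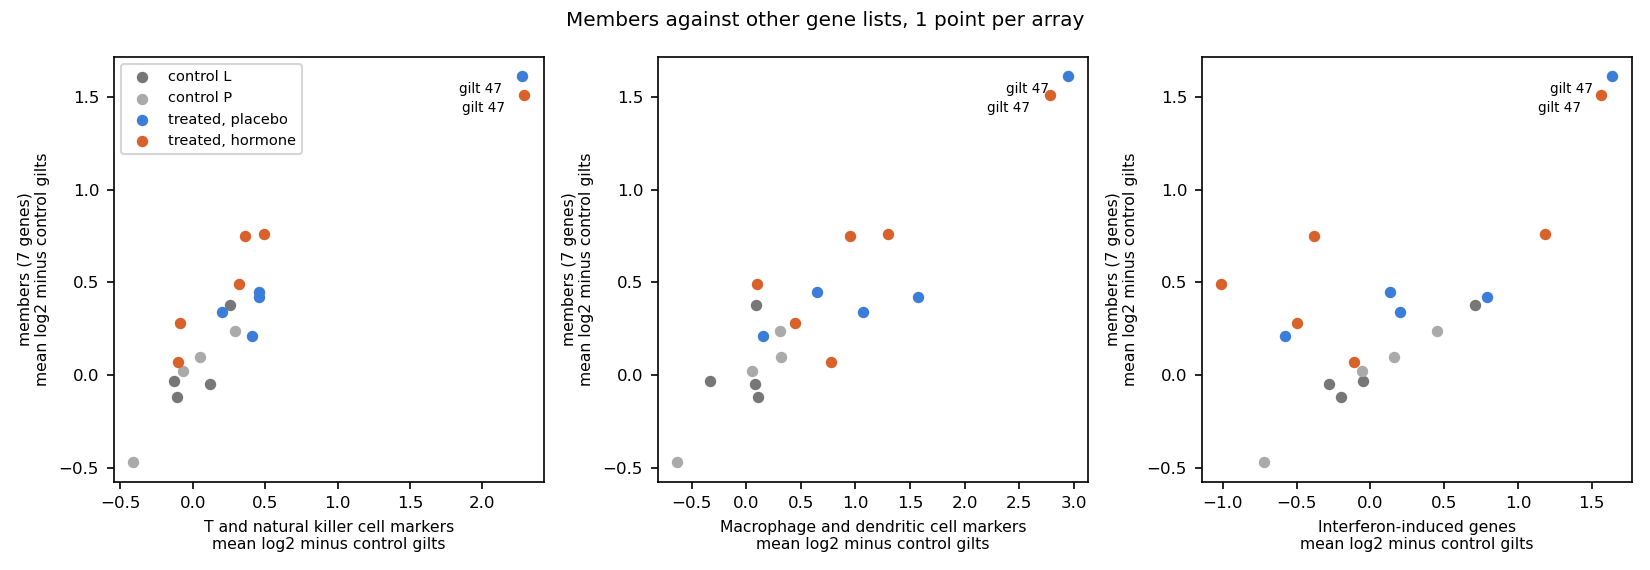
Mean log2 level of the 7 members relative to control gilts (vertical axis) against that of T and natural killer cell markers, macrophage and dendritic cell markers, and interferon-induced genes (horizontal axes, log2 relative to control gilts), 1 point per array, coloured by group. Gilt 47 lies at upper right in all panels, and without it the correlation is 0.85, 0.73 and 0.39 over 17 arrays. On the horizontal axis of the third panel it is at 1.64 and 1.56, with the hormone horn of gilt 41 next at 1.18.

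Within the set, PSMB9 and TAP1 followed each other most closely (r = 0.95 over 19 arrays, 0.87 without gilt 47). TAP2, PSMB8, TAP1 and PSMB9 are neighbours in that order in the pig genome annotation (RefSeq, Sscrofa11.1). By brightest probe, PSMB8 and TAP1 correlated at 0.86 (0.64 without gilt 47) and PSMB8 and PSMB9 at 0.83 (0.52). TAP2 probe A_72_P013781 had -0.20 to 0.06 with the other 6 genes (-0.08 to 0.30 without gilt 47). This range does not hold for TAP2 as a gene, since its dimmer probe, A_72_P275849, resembled TAP1. Correlations of the dimmer probe with the other genes were not taken. B2M was nearest to SLA-3 and PSMB9 (0.87 with each, 0.78 and 0.81 without gilt 47).

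The mean of the members, each centred on its own mean, was also set against 3003 other genes with a symbol. Most like it over 19 arrays were CD3D, a chain of the T cell receptor complex (r = 0.971, and 0.936 over 17 arrays without gilt 47), and SLA-5 (0.97, 0.908). CCRL2, a chemokine-binding receptor (0.958, 0.875), CXCR6, a chemokine receptor of T cells (0.954, 0.89), and CTSH, a lysosomal protease (0.951, 0.872), followed. Their differences were 1.05, 0.71, 1.08, 1.30 and 1.33 in hormone horns against control gilts and 1.14, 0.76, 1.17, 1.30 and 1.24 in placebo horns. Between hormone and placebo horns these 5 genes lay between -0.09 and 0.09. The probe matched to SLA-5 may read the same transcripts as those matched to SLA-3, which was not tested.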

How the data were processed

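Per the labels' protocols, RNA of 19 endometrial samples of 10 gilts was made into Cy3-labelled cRNA and hybridised to Agilent arrays of 1 colour. The deposited scanner files give spot intensity on a linear scale. Their headers name Agilent Feature Extraction 10.7.3.1, and version 9.1 stands in the submitters' processing notes. The processed intensity used here had been background-subtracted by Feature Extraction, per the file headers. The authors' deposited value table holds log2 values of the same arrays (r 0.996 to 0.999 with the scanner values), with scaling and centring not given in the sources used here; this table was only an alternative. Control spots and values with an outlier mark were left out, spots of a probe were averaged, and log2 of the 75th percentile of each array was subtracted. Of 43603 probes, 39095 were well above background on at least 4 arrays and entered limma 3.58.1 (lmFit with 4 groups, the gilt as random block by duplicateCorrelation with statmod 1.5.0, eBayes with trend, R 4.3.3; correlation within a gilt 0.536). Tests were two-sided, and a few probes lacked values for a comparison. The fit counts arrays and gives every probe the same correlation within a gilt, so adjusted p against control gilts may be too low where gilts vary much. Between the horns of a gilt, SE and p of such probes may be too high. The script was checked on simulated data.

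Groups came from the sample titles. Arrays with 1 gilt number are horns of 1 animal. Deviations of such pairs from group means were correlated at 0.336 to 0.795 (hormone and placebo horns) and 0.403 to 0.628 (control horns), against at most 0.143 and 0.0185 for other gilts. Symbols came through RefSeq accessions and the reference table of Sscrofa11.1 (6876 probes matched 1 gene). Coordinates were used only for the order of TAP2, PSMB8, TAP1 and PSMB9, and no sequences were used. The number of arrays limits the precision.

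Members, gene lists, markers and tests were chosen with earlier results of these data known. Named genes are all members by brightest probe, up to 3 genes per list with the smallest p in hormone horns against control gilts or those a result turned on, and the 5 genes most correlated with the members. Of the lists, members of the same proteasome or interferon family were also named for their role or their difference, after their values were seen. Alternatives were another scaling, background correction, filter, block, batch term, value table and probe rule, and leaving out gilts. The result of 1 listed gene is not reported here.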

Additional observations from a re-analysis of the deposited data

Results flagged for a closer look

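In groups of 4 to 10 arrays, the highest or lowest array was compared with the others by Dixon's ratio. Over the 21 member probes, 13 of 83 groups held an array far from the rest (15.7%), where chance gives about 1 in 20, and probes of a gene and genes of an array are not independent of each other. Of these, 8 were the placebo horn of gilt 47. It stood at 4.44, 3.86 and 3.42 in PSMB10 (probes A_72_P644145, A_72_P003971 and A_72_P501185), at 4.79 and 4.94 in PSMB9 (A_72_P035551 and A_72_P440071), at 6.64 and 5.60 in SLA-3 (A_72_P683231 and A_72_P440386) and at 0.03 in TAP2 (A_72_P275849). In the hormone horns, where gilt 47 was as high, the spread of the other gilts was wider and no probe singled it out.

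In control L horns, gilt 28 was high in B2M at 7.65 (A_72_P441589) and 6.88 (A_72_P709927). In control P horns, gilt 9 was low in PSMB9 at 1.73 (A_72_P035551) and in TAP1 at -4.40 (A_72_P172206). In hormone horns, gilt 40 was high in TAP2 at 3.35 (A_72_P013781), while the second TAP2 probe was at -1.62 on that array.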

How the results depend on the processing

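The gilt as a random block was used because the horns of a gilt came from the same animal. Without a replicate block, 1 of 7 genes (TAP1) and 4 of 21 probes passed in placebo horns against control gilts, in place of 0 and 2. In hormone horns the counts stayed at 0 and 2, and with the gilt as a fixed replicate block 0 passed between horns, as before.

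Counts in hormone horns against control gilts (0 genes, 2 probes) became 3 genes and 10 probes with the slide as a term, 2 genes and 9 probes with the slide as a random block, 1 gene with the median over the probes of a gene, and 1 gene with normexp on median signals. Counts in placebo horns (0 genes, 2 probes) became 1 and 4 with the slide as a term and 1 and 6 with the slide as a random block. Only 1 slide holds control and treated arrays, so with the slide as a term both comparisons rest on control gilt 9 against treated gilt 36, with the horns of a gilt counted as replicates, and these added calls say nothing about other gilts. As a random block the slide also joins these 2 gilts. Without the P horn of control gilt 9, 1 probe passed in placebo horns, and 575 probes of the whole array in place of 1728. With the control horns averaged, with only the groups compared, or leaving out gilt 47 with the hormone horn of gilt 36, 0 probes passed there. With the RefSeq and contig difference as a term, 0 probes passed in either comparison. Leaving out each gilt in turn gave 0 to 1 genes and 1 to 3 probes in hormone horns, with the 1 gene (TAP1) without gilt 40. In placebo horns it gave 0 to 0 genes and 0 to 2 probes, with 0 without gilt 9, 14, 28, 38 or 47 and 1 without gilt 41 or 44. Between hormone and placebo horns and between P and L horns, 0 members passed in any setting. Over the whole array the settings called 0 to 8293 probes in hormone and 0 to 5005 in placebo horns against control gilts. The cause of these changes was not tested.

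The RefSeq and contig term turned the sign of 6 genes in hormone horns (SLA-3 -0.12, B2M -0.26, TAP1 -0.19, PSMB8 -0.17, PSMB9 -0.43, PSMB10 -0.41) and in placebo horns (SLA-3 -0.24, B2M -0.21, TAP1 -0.11, PSMB8 -0.23, PSMB9 -0.62, PSMB10 -0.80). Between hormone and placebo horns only values near 0 turned. B2M became 0.0032 with the fixed block, with the slide as a term and without gilt 40, and 0.03 without gilt 38 (leaving out each gilt, -0.18 to 0.03). PSMB8 became -0.01 with the authors' table, with normexp and with gilt 47 and the hormone array of gilt 36 left out, -0.02 without the hormone horn of gilt 36 and without gilt 44, -0.05 without a block, and -0.10 without gilt 41 (leaving out each gilt, -0.10 to 0.10). TAP2 became -0.01 with the fixed block, with the slide as a term and without gilt 40, and -0.0021 with the median over probes (leaving out each gilt, -0.01 to 0.21).

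Quantile normalization, the authors' table, both filters and the scan day as a term changed none of the 8 counts. Normexp on mean signals was not run. Median signals took its place, and this setting, the slide as a random block, the RefSeq and contig term, the omission of the P horn of gilt 9 and the joint omission of 3 arrays were chosen after seeing the data. With 4 control gilts, adjusted p near the threshold moved across it with a single gilt.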
